A study of Homo sapiens with 12 samples.

Results

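The comparison of Ento+AZD exposure with DMSO was described over 6 of the 12 RNAseq libraries of SU-DHL-4, an established cell line of diffuse large B-cell lymphoma (DLBCL) of germinal-centre type that, per the labels, came from a peritoneal effusion and is listed as wild type. It comprised the libraries Ento+AZD 1 to 3, from cells given 1 µM Entospletinib (Ento), which inhibits spleen tyrosine kinase (SYK), together with 0.01 µM AZD5153 (AZD), a bivalent inhibitor of BET proteins, and the libraries DMSO 1 to 3, from cells given the solvent alone. Both exposures lasted 72 h, and the other 6 libraries, 3 with Ento alone and 3 with AZD alone at the same concentrations, entered the fit and the comparison with the single agents. The results rest on 1 cell line, and while the study speaks of biologically independent samples in general, the labels do not say that the 3 libraries of a group came from separate cultures, so that p-values measure only the spread between these libraries. Of the 46863 genes counted, 16835 passed the filter on low counts and were tested, and 9544 of these had a mean of at least 10 CPM (CPM, the usual scale of counts relative to library size, here after TMM normalization) over the 6 libraries. These are called well-counted here.

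As background, SYK relays the signal of the B-cell receptor from the CD79A and CD79B chains to BTK, phospholipase C, the PI3K pathway and ERK. BET proteins bind acetylated histones at promoters and enhancers and recruit the kinase P-TEFb, which releases paused RNA polymerase II. Germinal-centre B cells divide fast, keep the plasma-cell programme switched off and present antigen on HLA class II. The question addressed is which well-counted genes and which programmes besides DNA replication differed in level once both targets were inhibited.

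Total counts lay between 21502349 and 24675830 with DMSO and between 18121993 and 20889209 with Ento+AZD. The mitochondrial ribosomal RNA RNR2 took 1.67% ± 0.146 (SD, n = 3) of the counts with DMSO and 2.42% ± 0.231 (SD, n = 3) with Ento+AZD. All 10 markers of the B lineage were tested, and their summed level was 6356, 6852 and 4435 CPM in DMSO 1 to 3 and 7518, 8738 and 6674 CPM in Ento+AZD 1 to 3. Of 10 markers of T and NK cells 3 passed the filter. These 3 summed to between 7.19 and 7.79 CPM with DMSO and between 3.61 and 4.26 CPM with Ento+AZD. CD3D, CD2 and GNLY had no count in any of the 6 libraries. Of the myeloid list 2 markers passed, which summed to between 2.2 and 7.005 CPM, with no count for FCGR3A, S100A8 and CD163. Of the 10 epithelial and stromal markers only DCN and PECAM1 passed the filter, 1 lower and 1 higher, and KRT8, KRT18, KRT19, COL1A2 and COL3A1 had no count. DCN and PECAM1 together summed to 129.7, 133 and 69.8 CPM with DMSO and 118, 155 and 74 CPM with Ento+AZD. For the list of glycolysis and hypoxia DMSO 3 had the highest sum of the 6 libraries (14695 CPM). It did not stand alone among the 12, with 15026 CPM in AZD 1, 15300 CPM in AZD 3 and 14394 CPM in Ento 3. The replicate number 3 had the highest sum of this list, and the replicate number 2 the lowest sum of the mitosis list, in each of the 4 groups. Values without single libraries are given where they matter.

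Relative to DMSO, 3232 of the 16835 genes (19.2%) were higher and 3504 (20.8%) were lower with Ento+AZD at an adjusted p under 0.05 by the quasi-likelihood test of edgeR, adjusted after Benjamini and Hochberg. With an absolute log2 fold change over 1 as a further condition, 578 genes (3.43%) were overexpressed DEGs and 823 (4.89%) underexpressed DEGs. Among the 9544 well-counted genes 83 (0.87%) were overexpressed DEGs and 283 (2.97%) underexpressed DEGs, and all 366 had the same sign in the 3 replicate-numbered pairs. All 3 libraries of a group lay above or below all 3 of the other for 3220 genes higher (19.1%) and 3372 genes lower (20%) with Ento+AZD, among them 81 of the 83 and 276 of the 283 well-counted DEGs. Most overexpressed DEGs were sparsely counted genes. Of the 578, 230 had a mean under 1 CPM and 265 between 1 and 10 CPM. The same ranges held 220 and 320 of the 823 underexpressed DEGs, so most of these were sparsely counted too. They held 2651 and 4640 of the 16835 genes tested. Among the 2381 genes of at least 100 CPM, 14 were overexpressed and 43 underexpressed DEGs. Protein-coding genes made up 69.9% of the 83 well-counted overexpressed DEGs and 97.2% of the 283 underexpressed DEGs, against 88.6% of all 9544 well-counted genes. Annotated as lncRNAs were 19 of the 83 (22.9%) and 2 of the 283 (0.707%), against 140 of the 9544 (1.47%). Fits without the replicate number as a term gave 64 overexpressed and 149 underexpressed well-counted DEGs. At the threshold lay FIGNL1 (log2 fold change −1.0003) and ZNF276 (1.0013) just inside and ARHGAP19 (−0.9973) just outside.

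**Figure D1:**
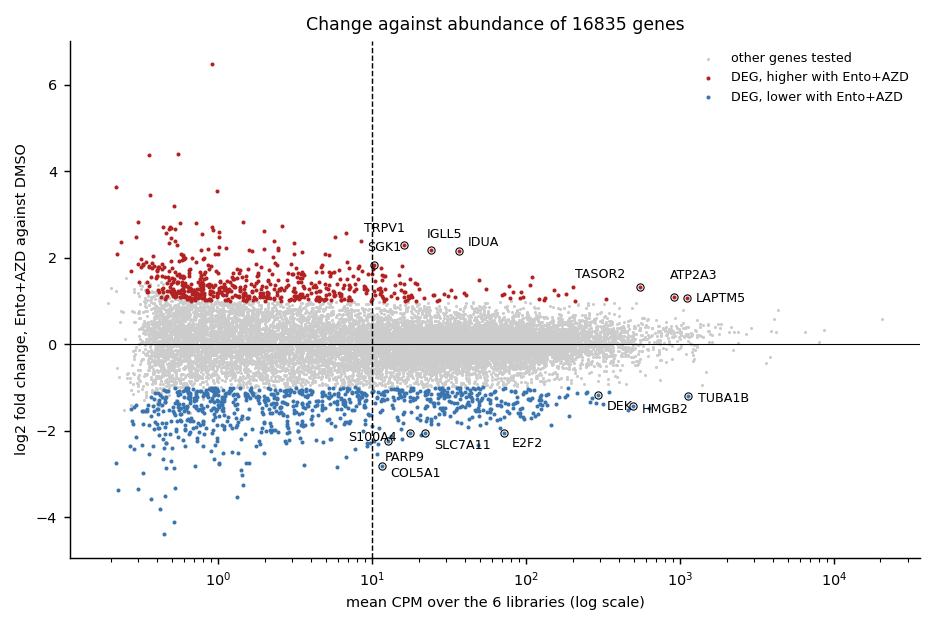
Log2 fold change of Ento+AZD against DMSO (y axis) against the mean CPM over the 6 libraries (x axis, log scale) for the 16835 genes tested, with overexpressed DEGs in red, underexpressed DEGs in blue and the limit of well-counted genes at 10 CPM as a dashed line. Right of the line 283 underexpressed DEGs stand against 83 overexpressed DEGs, and the circled genes are among those described in the text.

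Of the 366 well-counted DEGs, 105 belonged to the lists for DNA replication or mitosis, all of them underexpressed. The 261 others (83 overexpressed, 178 underexpressed) are the subject of the following paragraphs, which begin with the 12 largest changes in each direction.

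The well-counted gene with the largest increase was TRPV1, which encodes the heat- and capsaicin-gated cation channel (chr17:3565444-3609411, minus strand, GRCh38). Its level was 5.44, 7.6 and 3.03 CPM in DMSO 1 to 3 and 21.3, 42.9 and 16.3 CPM in Ento+AZD 1 to 3 (log2 fold change 2.29, standard error 0.25, adjusted p = 1.87e-05 by the quasi-likelihood test of edgeR, adjusted after Benjamini and Hochberg). IDUA, the lysosomal enzyme alpha-L-iduronidase that degrades glycosaminoglycans (chr4:986997-1004564, plus strand), had 12.1, 23.2 and 7.39 CPM with DMSO and 47.7, 81.7 and 47.2 CPM with Ento+AZD (log2 fold change 2.15, standard error 0.23, adjusted p = 1.64e-05 by the same test). The lowest Ento+AZD library exceeded the highest DMSO library for both genes, and Ento+AZD 2 and DMSO 2 were the highest libraries of their groups. SGK1, a kinase downstream of PI3K and mTORC2, was at 3.62, 4.35 and 5.5 CPM with DMSO and 18.8, 18.9 and 10.8 CPM with Ento+AZD (log2 fold change 1.83, standard error 0.23, adjusted p = 3.98e-05 by the same test). The immunoglobulin lambda-like gene IGLL5 had 8.58, 16 and 2.95 CPM with DMSO and 49.99, 40.3 and 25.9 CPM with Ento+AZD (log2 fold change 2.17, standard error 0.26, adjusted p = 3.25e-05 by the same test), and without DMSO replicate 2 its log2 fold change was 2.8. The groups did not overlap for either gene. IGLL5 shares exons with the lambda constant gene IGLC1 and TRPV1 with SHPK on the same strand, so reads of these partners cannot be told apart from theirs here.

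TDRD6, a tudor-domain protein of germ cells, rose from 3.1, 5.77 and 4.75 CPM to 12.1, 19.4 and 15.7 CPM (log2 fold change 1.8, standard error 0.12, adjusted p = 1.71e-06 by the quasi-likelihood test of edgeR, adjusted after Benjamini and Hochberg). EPHB4, a receptor tyrosine kinase for ephrin-B2, went from 2.62, 7.7 and 6.05 CPM to 14.1, 17.4 and 20.1 CPM (log2 fold change 1.76, standard error 0.21, adjusted p = 3.62e-05 by the same test). HSF4, a heat shock transcription factor best known from the lens, had 6.16, 9.99 and 6.33 CPM with DMSO and 18.8, 27.6 and 20.6 CPM with Ento+AZD (log2 fold change 1.59, standard error 0.15, adjusted p = 6.89e-06 by the same test). For these 3 genes, as for all 12 of the largest increases, each Ento+AZD library lay above each DMSO library. The remaining 5 were GAS6-AS1, antisense to the growth factor gene GAS6, and the uncharacterized LOC107984754, LOC102723528, LOC101928953 and LOC105373102, with log2 fold changes between 1.57 and 1.8. Without the replicate number as a term LOC101928953 no longer passed (adjusted p = 0.0535 by the same test). Exons of SLC26A1, PLA2G7, SLC12A9 and GAS6 lie opposite IDUA, TDRD6, EPHB4 and GAS6-AS1, and since the use of strand in the counting is not given in the sources used here, their reads may be mixed.

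The 5 most abundant overexpressed DEGs were LAPTM5, ATP2A3, TASOR2, LENG8 and ABCA7. LAPTM5, a lysosomal membrane protein of blood cells that lowers the surface level of antigen receptors, had 771, 938 and 486 CPM with DMSO and 1429, 1751 and 1270.2 CPM with Ento+AZD (log2 fold change 1.06, standard error 0.14, adjusted p = 7.35e-05 by the quasi-likelihood test of edgeR, adjusted after Benjamini and Hochberg). ATP2A3, the calcium pump SERCA3 of the endoplasmic reticulum, had 585, 795 and 393 CPM and 1139, 1519.9 and 1021 CPM (log2 fold change 1.09, standard error 0.11, adjusted p = 1.43e-05 by the same test). TASOR2, a relative of the HUSH complex subunit TASOR, had 217, 369 and 376 CPM and 683, 858 and 807 CPM (log2 fold change 1.32, standard error 0.12, adjusted p = 7.60e-06 by the same test). None of these 3 overlapped between the groups, and DMSO 3 was the lowest of the 6 libraries for LAPTM5 and ATP2A3 but the highest DMSO library for TASOR2. LENG8 and the lipid transporter gene ABCA7 had log2 fold changes of 1.05 and 1.01. Without the replicate number LAPTM5 missed the threshold (adjusted p = 0.0526 by the same test).

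Among the largest decreases were the interferon-linked PARP9 and the S100 gene S100A4. PARP9, a mono-ADP-ribosyltransferase that acts with the ubiquitin ligase DTX3L, had 24.4, 17.9 and 21 CPM with DMSO and 4.45, 4.86 and 3.84 CPM with Ento+AZD (log2 fold change −2.24, standard error 0.19, adjusted p = 4.92e-06 by the quasi-likelihood test of edgeR, adjusted after Benjamini and Hochberg). S100A4, a calcium-binding protein that acts on myosin and cell motility, had 37.5, 28.5 and 18.9 CPM and 8.12, 6.004 and 5.92 CPM (log2 fold change −2.06, standard error 0.16, adjusted p = 2.13e-06 by the same test). SLC7A11, the cystine transporter subunit that feeds glutathione synthesis, had 37, 28.1 and 41.1 CPM and 8.95, 7.96 and 8.63 CPM (log2 fold change −2.05, standard error 0.20, adjusted p = 8.99e-06 by the same test). The Ento+AZD libraries of these 3 genes stayed under 9 CPM, and the DMSO libraries were above 17 CPM throughout. LRRTM4-AS1, a lncRNA (chr2:76985965-77009791, plus strand), had 18, 12.8 and 24.3 CPM and 4.79, 1.95 and 2.88 CPM (log2 fold change −2.53, standard error 0.19, adjusted p = 1.82e-06 by the same test). SESTD1, a phospholipid-binding protein with spectrin repeats, had 18.6, 15.8 and 30.4 CPM and 4.26, 3.91 and 6.71 CPM (log2 fold change −2.11, standard error 0.22, adjusted p = 1.37e-05 by the same test). Neither overlapped between the groups. The mucin gene MUC19 also fell (log2 fold change −2.23).

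A group of 3 genes near the top of the decreases had their highest level by far in library DMSO 3. COL5A1, a fibrillar collagen chain (chr9:134641803-134844843, plus strand), had 8.54, 5.77 and 48.1 CPM with DMSO and 2.64, 3.14 and 0.903 CPM with Ento+AZD (log2 fold change −2.82, standard error 0.82, adjusted p = 0.0141 by the quasi-likelihood test of edgeR, adjusted after Benjamini and Hochberg). The metallothionein MT2A, which binds zinc and copper, had 8.31, 6.69 and 40.6 CPM and 3.33, 3.62 and 2.65 CPM (log2 fold change −2.31, standard error 0.54, adjusted p = 0.00369 by the same test). PFKFB4, which sets the level of the glycolysis activator fructose 2,6-bisphosphate, had 12.4, 15.3 and 77.9 CPM and 6.16, 5.77 and 7.56 CPM (log2 fold change −2.09, standard error 0.51, adjusted p = 0.00506 by the same test). In each the groups did not overlap, but DMSO 3 lay several times above DMSO 1 and 2. Without DMSO replicate 3 the log2 fold change of COL5A1 was −1.61 (adjusted p = 0.109 by the same test) and that of MT2A −1.07. COL5A1 also missed the threshold without Ento+AZD replicate 1 (adjusted p = 0.0627) or 3 (adjusted p = 0.104), and its log2 fold change was −3.51 without DMSO replicate 1 and −3.76 without Ento+AZD replicate 2. In the fit without the replicate number neither COL5A1 (adjusted p = 0.0514) nor PFKFB4 (adjusted p = 0.0662) passed.

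The other 3 of the 12 decreases included E2F2 and DTL, which act in the cell cycle but stood in neither of the lists for replication and mitosis. E2F2, an activating E2F transcription factor, had 92, 98.7 and 148 CPM with DMSO and 37.9, 10.7 and 44.3 CPM with Ento+AZD (log2 fold change −2.05, standard error 0.24, adjusted p = 2.82e-05 by the quasi-likelihood test of edgeR, adjusted after Benjamini and Hochberg). DTL, the substrate receptor with which CUL4 destroys CDT1, had 45.9, 48.3 and 102 CPM and 19.1, 7.58 and 28 CPM (log2 fold change −1.92, standard error 0.20, adjusted p = 1.55e-05 by the same test). WDR76 had 87.2, 86.9 and 141 CPM and 29.6, 14.3 and 44.1 CPM (log2 fold change −1.94, standard error 0.18, adjusted p = 6.89e-06 by the same test). In all 3, Ento+AZD 2 was the lowest library and DMSO 3 the highest, and the groups did not overlap. The 5 most abundant underexpressed DEGs outside both lists were TUBA1B, HMGB2, STMN1, DEK and TMPO, which encode an alpha-tubulin, a DNA-bending protein, the tubulin-binding stathmin, a chromatin protein and a protein of the nuclear lamina. DEK had 389, 328 and 478 CPM and 191, 109.9 and 254 CPM (log2 fold change −1.18, standard error 0.12, adjusted p = 1.33e-05 by the same test), and TUBA1B had 1324, 1268 and 1913 CPM and 846, 282 and 1162 CPM (log2 fold change −1.2, standard error 0.22, adjusted p = 6.13e-04 by the same test). Both were without overlap, with Ento+AZD 2 far under the other Ento+AZD libraries for TUBA1B. Without the replicate number TUBA1B (adjusted p = 0.195), HMGB2 (adjusted p = 0.131) and STMN1 (adjusted p = 0.0932) did not pass by the same test, while DEK and TMPO did. HMGB2 and TMPO have processed copies in the count table that may share their reads.

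**Figure D2:**
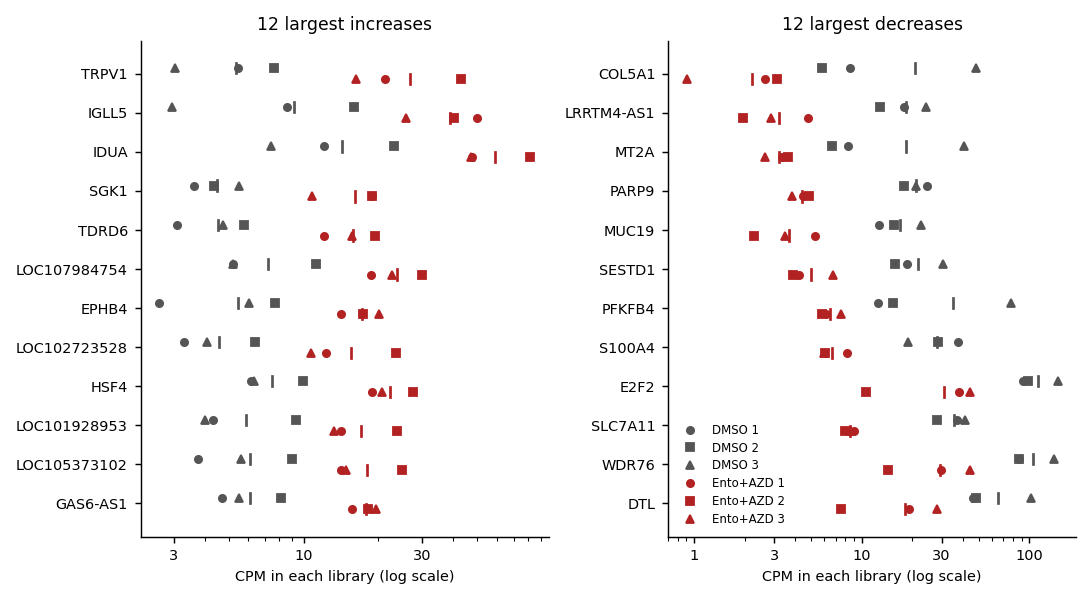
CPM (x axis, log scale) of the 12 well-counted genes with the largest increase (left) and the 12 with the largest decrease (right) in DMSO (grey) and Ento+AZD (red) libraries 1 (circle), 2 (square) and 3 (triangle), with vertical bars at the group means. The groups do not overlap for any of the 24, and DMSO 3 stands far right for COL5A1, MT2A and PFKFB4.

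Programmes were described by lists of genes, each by its number of members called higher and lower at an adjusted p under 0.05 and its median log2 fold change, which over all 16835 genes was 0.01. The overall shares called, 19.2% higher and 20.8% lower, are the background for every count of the main fit that follows. They are no background for counts from the fit without the replicate number or without single libraries. For those fits no share over all genes is given, so their counts show only how the calls moved. The lists were chosen with earlier results of these data known, and no list was tested as a set. Counts are from the quasi-likelihood test of edgeR, adjusted after Benjamini and Hochberg over all genes tested, and the counts from the fit without the replicate number follow them, since most were smaller there. Counts of 4 or fewer moved by up to 4 genes when 1 library was left out.

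**Figure D3:**
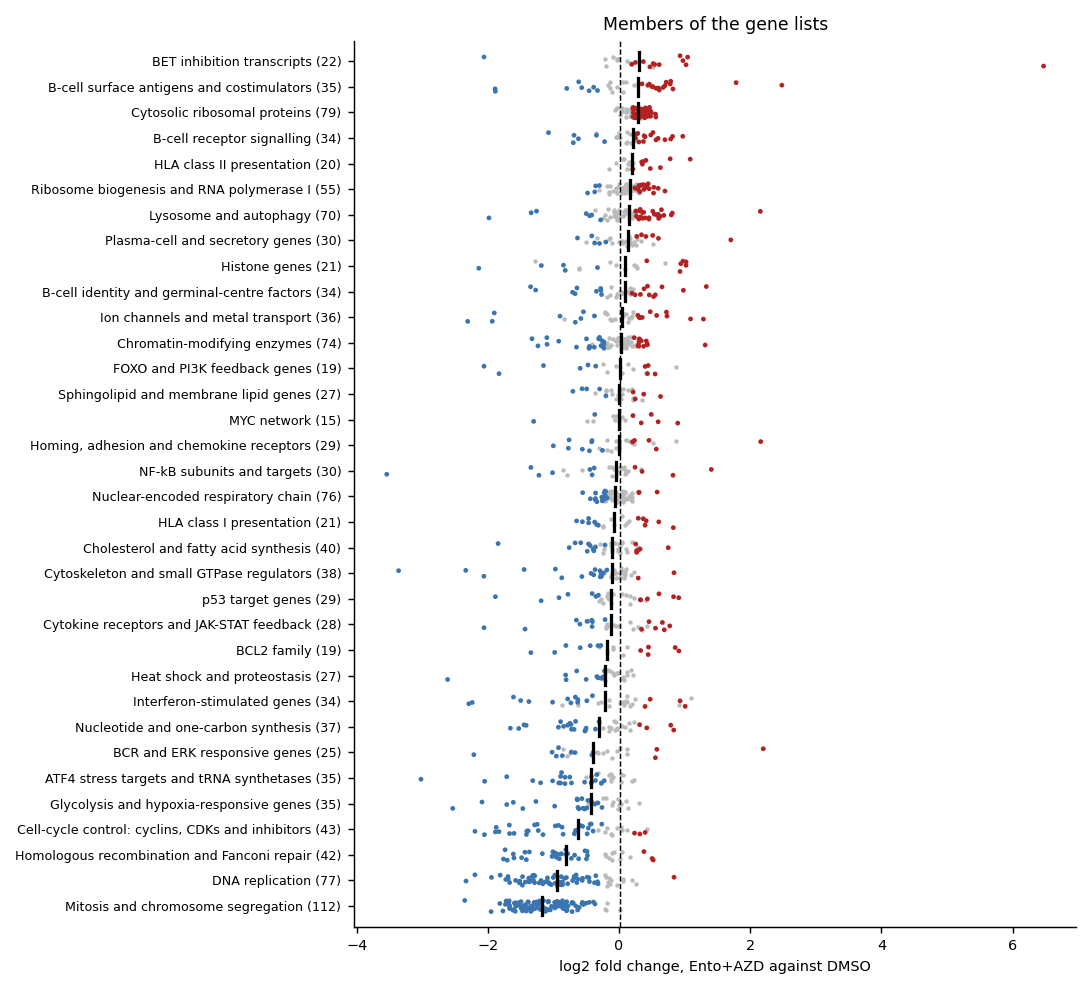
Log2 fold change of Ento+AZD against DMSO (x axis) for the tested members of each list with at least 15 of them (number in brackets), red where called higher, blue where called lower and grey where the adjusted p was not under 0.05, with black bars at list medians and a dashed line at the median of all genes. Medians run from −1.18 for mitosis to 0.31 for the transcripts linked to BET inhibition, and nearly all points of the mitosis list lie left of 0. The point farthest right is DHRS2, with a mean under 1 CPM.

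Genes of cell division took the largest share of lower calls. Of the 112 tested mitosis genes 108 were lower and 0 higher (median −1.18), against 64 and 1 of 77 genes of DNA replication (median −0.94). The summed level of the mitosis list was 12678, 11002 and 16887 CPM in DMSO 1 to 3 and 7448, 3858 and 8987 CPM in Ento+AZD 1 to 3. In bulk RNA fewer dividing cells and less RNA per dividing cell cannot be told apart. UBE2C, which charges the anaphase-promoting complex with ubiquitin, had 78.8, 66.5 and 104 CPM with DMSO and 33.8, 9.01 and 39 CPM with Ento+AZD (log2 fold change −1.82, standard error 0.24, adjusted p = 6.69e-05 by the quasi-likelihood test of edgeR, adjusted after Benjamini and Hochberg, adjusted p = 0.0654 without the replicate number). These counts leaned on the replicate number, since without it 11 mitosis genes and 19 replication genes were lower by the same test. Leaving out any 1 library left at least 107 mitosis genes lower. The single replication gene that rose was POLD4, the smallest subunit of DNA polymerase delta, with 222, 214 and 104 CPM and 312, 372 and 252 CPM (log2 fold change 0.84, standard error 0.12, adjusted p = 1.51e-04 by the same test, adjusted p = 0.0684 without the replicate number).

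Genes of repair and of nucleotide supply also leaned downwards, with smaller medians than those of mitosis and DNA replication. Of 42 genes of homologous recombination and the Fanconi pathway 30 were lower and 3 higher (median −0.81). MND1, best known from strand exchange in meiosis, had 71.3, 37.6 and 87.2 CPM with DMSO and 24.3, 9.96 and 26.1 CPM with Ento+AZD (log2 fold change −1.74, standard error 0.14, adjusted p = 2.96e-06 by the quasi-likelihood test of edgeR, adjusted after Benjamini and Hochberg). The damage kinase ATR was the opposite, with 90.6, 109 and 117 CPM and 139, 144 and 164 CPM (log2 fold change 0.50, standard error 0.08, adjusted p = 3.77e-04 by the same test). The groups overlapped for neither gene. Of 37 genes of nucleotide and one-carbon synthesis 18 were lower and 4 higher (median −0.30). The ribonucleotide reductase subunit RRM2 fell from 233, 223 and 375 CPM to 112, 33.1 and 163 CPM (log2 fold change −1.66, standard error 0.23, adjusted p = 7.69e-05 by the same test), which did not pass without the replicate number (adjusted p = 0.0818). In the same list SAMHD1, which degrades deoxynucleotides, had 125, 169 and 67.1 CPM and 195, 224 and 191 CPM (log2 fold change 0.83, standard error 0.18, adjusted p = 0.00274 by the same test, adjusted p = 0.13 without the replicate number), and the serine synthesis enzyme PSPH had 36.2, 39.9 and 31.2 CPM and 60.4, 62 and 62.6 CPM (log2 fold change 0.79, standard error 0.10, adjusted p = 3.82e-05 by the same test). Both were higher with Ento+AZD without overlap. Without the replicate number 12 repair genes and 7 nucleotide genes were lower.

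Among cyclins, CDKs, E2Fs and their inhibitors 30 of 43 were lower and 3 higher (median −0.63), or 13 lower and 0 higher without the replicate number. Without Ento+AZD replicate 3 none of them was higher. E2F8, a repressing E2F, had 19.3, 22.5 and 33.7 CPM with DMSO and 5.92, 1.86 and 10.5 CPM with Ento+AZD (log2 fold change −2.2, standard error 0.27, adjusted p = 3.95e-05 by the quasi-likelihood test of edgeR, adjusted after Benjamini and Hochberg). Among the CDK inhibitors, CDKN1B, which encodes p27, had 13.5, 5.04 and 15.2 CPM and 3.13, 2.67 and 2.93 CPM (log2 fold change −1.83, standard error 0.28, adjusted p = 1.88e-04 by the same test), and CDKN1A, which encodes p21, had 2.54, 1.42 and 6.6 CPM and 1.22, 0.953 and 0.451 CPM (log2 fold change −1.89, standard error 0.46, adjusted p = 0.00485 by the same test). Both were lower without overlap, at levels under 20 CPM. Without DMSO replicate 3 the log2 fold change of CDKN1A was −1.01. CDKN1A is also a target of p53, and of 29 such targets 6 were higher and 7 lower (median −0.12), or 2 and 4 without the replicate number, with 4 lower without Ento+AZD replicate 1. The damage sensors DDB2 and XPC moved apart in these libraries. DDB2 had 34.8, 26.9 and 53.9 CPM with DMSO and 19, 13.2 and 17.4 CPM with Ento+AZD (log2 fold change −1.19, standard error 0.17, adjusted p = 1.24e-04 by the same test), XPC 79.6, 94.6 and 83.6 CPM and 148, 165 and 145 CPM (log2 fold change 0.83, standard error 0.08, adjusted p = 1.06e-05 by the same test). TP53INP1, a stress-induced gene of autophagy and cell death, rose from 183, 146 and 113 CPM to 275, 374 and 202 CPM (log2 fold change 0.91, standard error 0.13, adjusted p = 9.34e-05 by the same test, adjusted p = 0.0539 without the replicate number).

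Sequence before the start sites of genes in these programmes is shown for 4 genes that were chosen after their values were seen, as RefSeq (GRCh38.p14) gives it, from 150 bases before to 10 bases after the start site and 5′ to 3′ on the strand of the gene. CDT1 (chr16:88803639-88803798, plus strand) and DEK (chr6:18264521-18264680, minus strand) stand for the genes of the cell cycle and of chromatin that fell, and the capitals mark the E2F motif TTCCCGC or its reverse complement and, in DEK, the reverse complement of the NF-Y motif CCAAT.
CDT1: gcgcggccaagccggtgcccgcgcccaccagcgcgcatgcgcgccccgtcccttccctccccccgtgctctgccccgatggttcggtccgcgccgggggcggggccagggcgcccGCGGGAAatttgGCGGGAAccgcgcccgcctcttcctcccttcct
DEK: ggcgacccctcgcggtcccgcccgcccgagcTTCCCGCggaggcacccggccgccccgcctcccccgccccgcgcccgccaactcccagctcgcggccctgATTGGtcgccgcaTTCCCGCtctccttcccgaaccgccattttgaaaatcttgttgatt

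CDT1, the licensing factor that loads the MCM helicase, had 61.7, 53.5 and 124 CPM with DMSO and 19.1, 5.53 and 27.6 CPM with Ento+AZD (log2 fold change −2.34, standard error 0.22, adjusted p = 7.08e-06 by the quasi-likelihood test of edgeR, adjusted after Benjamini and Hochberg), and DEK is given above. In windows from 250 bases before to 50 after the start site, searched on both strands, TTCCCGC was found in 1033 of 10473 tested genes with an entry (9.86%). Among well-counted genes with an entry it was found in 789 of 7124 (11.1%). It was found in 53 of 225 well-counted underexpressed DEGs (23.6%), and in 28 of 137 of those outside the replication and mitosis lists (20.4%). CCAAT was found in 37.1% of all windows, in 38.6% of those of well-counted genes and in 62 of 91 windows of the mitosis list (68.1%). Its share of 39.4% in the well-counted underexpressed DEGs outside both lists was near that of all well-counted genes. The 58 windows of well-counted overexpressed DEGs held TTCCCGC in 3 cases (5.17%). The windows of TRPV1, IDUA, COL5A1 and LRRTM4-AS1 held none of these motifs, nor the E-box CACGTG, the AP-1 motif TGACTCA, the forkhead motif GTAAACA, the octamer core ATTTGCA or the ETS motif CCGGAAG. A match describes the letters in a window and not the binding of a factor.

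Genes of the B-cell receptor pathway leaned upwards. Of 34 tested members 16 were higher and 6 lower (median 0.21), and 7 of 10 B-lineage markers were higher and 0 lower (median 0.46), or 1 higher without the replicate number. Of 10 markers of germinal-centre B cells 4 were higher and 1 lower, or 1 and 0 without the replicate number. RASGRP3, which activates RAS after phospholipase C, had 104, 139.5 and 119 CPM with DMSO and 210.2, 229 and 196 CPM with Ento+AZD (log2 fold change 0.82, standard error 0.09, adjusted p = 2.16e-05 by the quasi-likelihood test of edgeR, adjusted after Benjamini and Hochberg). Its relative RASGRP1 had 183, 187 and 177 CPM and 118, 119 and 101 CPM (log2 fold change −0.70, standard error 0.07, adjusted p = 1.33e-05 by the same test). Neither overlapped between groups, and RASGRP3 was higher while RASGRP1 was lower. The inhibitory receptor CD22 rose from 599, 1037 and 689.6 CPM to 1241, 1488 and 1164 CPM (log2 fold change 0.79, standard error 0.15, adjusted p = 0.0011 by the same test). The phosphatase PTPN6 (SHP-1), which acts through CD22, had 15.7, 23.3 and 3.73 CPM and 7.34, 7.005 and 3.72 CPM (log2 fold change −1.08, standard error 0.26, adjusted p = 0.00469 by the same test), and its groups overlapped, with DMSO 3 at the low end. Without the replicate number 3 members were higher and 3 lower. RASGRP1 and RASGRP3 kept their calls, whereas CD22 (adjusted p = 0.137) and PTPN6 (adjusted p = 0.177) did not.

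Genes that respond to receptor and ERK signalling went the other way on balance, with 9 of 25 lower and 3 higher (median −0.39), or 4 and 2 without the replicate number. The AP-1 subunit gene FOS had 16.3, 5.73 and 6.29 CPM with DMSO and 4.55, 3.38 and 4.85 CPM with Ento+AZD (log2 fold change −1.02, standard error 0.25, adjusted p = 0.00527 by the quasi-likelihood test of edgeR, adjusted after Benjamini and Hochberg), and JUND, another AP-1 subunit, had 112, 77 and 79.8 CPM and 139, 117 and 141 CPM (log2 fold change 0.57, standard error 0.09, adjusted p = 2.22e-04 by the same test). JUND was higher in every Ento+AZD library. FOS lost its call without the replicate number (adjusted p = 0.118) and without Ento+AZD replicate 1 (adjusted p = 0.0642). The activation antigen CD69 rose from 1.11, 0.366 and 0.472 CPM to 7.19, 1.38 and 1.35 CPM (log2 fold change 2.2, standard error 0.38, adjusted p = 4.38e-04 by the same test), with Ento+AZD 1 far above the others and a log2 fold change of 1.49 without it. Of 19 genes controlled by FOXO factors or feeding back on PI3K, 4 were higher and 6 lower, or 0 and 2 without the replicate number. FOXO1 itself had 155, 171 and 150.5 CPM and 199.6, 249 and 198 CPM (log2 fold change 0.43, standard error 0.07, adjusted p = 4.33e-04 by the same test), and the PI3K inhibitor PIK3IP1 65.3, 61.2 and 49.9 CPM and 88.5, 101 and 69.9 CPM (log2 fold change 0.55, standard error 0.09, adjusted p = 3.55e-04 by the same test). Neither overlapped between groups, and neither passed without the replicate number (adjusted p = 0.057 and 0.0557). The FOXO-linked IL7R and the pseudokinase TRIB1 were lower, with log2 fold changes of −2.06 and −1.15, IL7R with an adjusted p of 0.0529 without the replicate number.

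Transcription factors of B-cell identity moved in both directions, with 11 of 34 higher and 9 lower (median 0.08), or 4 and 6 without the replicate number. BACH2, a repressor that holds back plasma-cell differentiation, had 98.4, 156 and 91.6 CPM with DMSO and 292, 349.5 and 220.4 CPM with Ento+AZD (log2 fold change 1.33, standard error 0.10, adjusted p = 1.82e-06 by the quasi-likelihood test of edgeR, adjusted after Benjamini and Hochberg). IRF8, a factor of germinal-centre B cells, had 305, 348 and 279 CPM and 481, 491 and 487 CPM (log2 fold change 0.65, standard error 0.08, adjusted p = 3.06e-05 by the same test). IKZF2, the Ikaros-family factor Helios, had 58.1, 40.1 and 59.4 CPM and 23.4, 20.3 and 20.6 CPM (log2 fold change −1.27, standard error 0.15, adjusted p = 3.47e-05 by the same test). The groups overlapped for none of them, with BACH2 and IRF8 higher and IKZF2 lower. The AP-1 partner BATF was also lower (log2 fold change −1.35), at under 5 CPM. Of 30 plasma-cell and secretory genes 6 were higher and 5 lower, or 3 and 3 without the replicate number, with 3 lower without Ento+AZD replicate 3. XBP1, the factor of the secretory programme, had 3.18, 3.21 and 2.16 CPM and 12, 9.01 and 6.94 CPM (log2 fold change 1.7, standard error 0.16, adjusted p = 6.69e-06 by the same test), and the ectoenzyme CD38 had 242, 266 and 295 CPM and 380.4, 423 and 411 CPM (log2 fold change 0.60, standard error 0.08, adjusted p = 5.85e-05 by the same test). Both were higher in every Ento+AZD library, XBP1 from a low level. TNFRSF17, the plasma-cell receptor BCMA, had 17.9, 14.7 and 12.6 CPM and 13.5, 9.91 and 6.26 CPM with overlapping groups (log2 fold change −0.63, standard error 0.18, adjusted p = 0.0106 by the same test), and missed the threshold without the replicate number (adjusted p = 0.171) and without Ento+AZD replicate 3 (adjusted p = 0.0611).

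Surface antigens and costimulators were higher in 16 and lower in 8 of 35 cases (median 0.29), or in 2 and 4 without the replicate number. CD84, an adhesion receptor of the SLAM family, had 13.9, 14.1 and 18.9 CPM with DMSO and 4.7, 4.24 and 3.72 CPM with Ento+AZD (log2 fold change −1.89, standard error 0.19, adjusted p = 1.20e-05 by the quasi-likelihood test of edgeR, adjusted after Benjamini and Hochberg). CD40, the receptor for T-cell help, had 67.4, 75 and 54.4 CPM and 117, 148 and 88.3 CPM (log2 fold change 0.82, standard error 0.10, adjusted p = 4.47e-05 by the same test, adjusted p = 0.0573 without the replicate number). FCER2, the low-affinity IgE receptor CD23, had 1.43, 3.85 and 0.589 CPM and 8.76, 14.5 and 5.13 CPM (log2 fold change 2.48, standard error 0.30, adjusted p = 3.19e-05 by the same test, adjusted p = 0.0983 without the replicate number). CD84 was lower and the other 2 were higher, in each case without overlap. Of 29 genes of homing and adhesion 5 were higher and 8 lower, or 1 and 2 without the replicate number. The higher genes numbered 3 without DMSO replicate 2, Ento+AZD replicate 1 or Ento+AZD replicate 3. ITGA4, the alpha chain of the integrin VLA-4, had 125, 114 and 112 CPM and 70.4, 65.5 and 70.9 CPM (log2 fold change −0.76, standard error 0.07, adjusted p = 7.73e-06 by the same test), and RGS16, which shortens chemokine receptor signals, 33.9, 29.3 and 50.8 CPM and 23.1, 14 and 19.9 CPM (log2 fold change −1.003, standard error 0.17, adjusted p = 4.11e-04 by the same test). ITGA4 was the steadier of the pair, and RGS16 did not pass without the replicate number (adjusted p = 0.0642). The chemotactic receptor GPR183 rose from a level under 1 CPM (log2 fold change 2.16, or 1.22 without Ento+AZD replicate 1).

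Survival and cytokine genes gave mixed counts. Of 30 NF-kB subunits and targets 4 were higher and 7 lower (median −0.05), or 1 and 2 without the replicate number, with 2 higher without Ento+AZD replicate 1. LTB, which encodes lymphotoxin beta, had 9.94, 14 and 7.23 CPM with DMSO and 27.4, 34.7 and 19.8 CPM with Ento+AZD (log2 fold change 1.41, standard error 0.15, adjusted p = 1.55e-05 by the quasi-likelihood test of edgeR, adjusted after Benjamini and Hochberg). TNFRSF11A, the receptor RANK, had 3.26, 1.51 and 2.51 CPM and 0.196, 0.143 and 0.282 CPM (log2 fold change −3.54, standard error 0.41, adjusted p = 2.38e-05 by the same test). LTB was higher and TNFRSF11A lower in every Ento+AZD library, the latter at a low level. In the BCL2 family 5 of 19 were higher and 7 lower, or 2 and 1 without the replicate number. The higher genes numbered 2 without DMSO replicate 2 and 3 without Ento+AZD replicate 2, the lower ones 4 without Ento+AZD replicate 1 and 3 without Ento+AZD replicate 3. BCL2 had 368, 402 and 392 CPM and 446, 665 and 493 CPM (log2 fold change 0.45, standard error 0.10, adjusted p = 0.00235 by the same test), the pro-death BCL2L11 (BIM) 100.3, 118 and 93.5 CPM and 129, 163 and 133 CPM (log2 fold change 0.44, standard error 0.08, adjusted p = 6.24e-04 by the same test), and the anti-death BCL2A1 13, 7.97 and 7.31 CPM and 5.33, 3.91 and 1.97 CPM (log2 fold change −1.35, standard error 0.18, adjusted p = 7.20e-05 by the same test). BCL2 and BCL2L11 were higher and BCL2A1 lower, each without overlap, and BCL2 alone of these 3 kept its call without the replicate number (adjusted p = 0.079 for BCL2L11 and 0.0501 for BCL2A1). Of 28 cytokine receptor and JAK-STAT genes 6 were higher and 9 lower, or 3 and 2 without the replicate number, and the survival kinases of the PIM family parted. PIM2 had 32.5, 35.6 and 58.1 CPM with DMSO and 68, 83 and 62.5 CPM with Ento+AZD (log2 fold change 0.77, standard error 0.17, adjusted p = 0.00267 by the same test), PIM1 32, 21.7 and 55.4 CPM and 15.2, 6.77 and 19.4 CPM (log2 fold change −1.43, standard error 0.21, adjusted p = 1.24e-04 by the same test, adjusted p = 0.0989 without the replicate number). JAK1 rose from 65.7, 66.1 and 58.9 CPM to 96.8, 105 and 99.7 CPM (log2 fold change 0.66, standard error 0.07, adjusted p = 2.01e-05 by the same test). PIM2 and JAK1 were higher and PIM1 lower in every Ento+AZD library.

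Antigen presentation on class II was higher in 9 and lower in 0 of 20 genes (median 0.20), with summed levels of 7901, 9258 and 5126 CPM with DMSO and 10276, 11712 and 8523 CPM with Ento+AZD. These sums overlapped, and DMSO 3 was the lowest library. CD74, the invariant chain that guides class II molecules, had 3297, 4159.6 and 2257 CPM and 5304, 6307 and 4694 CPM (log2 fold change 0.78, standard error 0.11, adjusted p = 1.28e-04 by the quasi-likelihood test of edgeR, adjusted after Benjamini and Hochberg), without overlap but with an adjusted p of 0.0707 without the replicate number, where 1 class II gene was higher. Among genes of class I presentation the chaperone CALR had 471, 535 and 364 CPM and 716, 639 and 707 CPM (log2 fold change 0.60, standard error 0.12, adjusted p = 0.00112 by the same test), whereas the immunoproteasome subunit PSMB8 had 53.7, 45.3 and 37.5 CPM and 35, 26.5 and 25.5 CPM (log2 fold change −0.65, standard error 0.10, adjusted p = 1.51e-04 by the same test). Neither overlapped. In all, 6 of 21 such genes were higher and 7 lower, or 1 and 3 without the replicate number. The proteasome subunits PSMB9 and PSME2 were lower as well (log2 fold changes −0.56 and −0.47), PSMB9 with an adjusted p of 0.098 without the replicate number. PSMB8 and PSMB9 lie opposite each other with overlapping exons. Of 70 genes of lysosome and autophagy 25 were higher and 7 lower (median 0.15), or 9 and 4 without the replicate number. Besides IDUA, the protective protein CTSA had 36, 44.4 and 28.4 CPM with DMSO and 59, 79.9 and 50.8 CPM with Ento+AZD (log2 fold change 0.80, standard error 0.14, adjusted p = 5.55e-04 by the same test, adjusted p = 0.124 without the replicate number). Its groups did not overlap.

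Interferon-stimulated genes were lower in 13 and higher in 4 of 34 cases (median −0.22), or in 8 and 1 without the replicate number. The start regions of DTX3L (chr3:122564188-122564347, plus strand) and EPSTI1 (chr13:42992232-42992391, minus strand) are shown because both genes fell and hold the letters GAAANNGAAA of interferon-response elements, in capitals.
DTX3L: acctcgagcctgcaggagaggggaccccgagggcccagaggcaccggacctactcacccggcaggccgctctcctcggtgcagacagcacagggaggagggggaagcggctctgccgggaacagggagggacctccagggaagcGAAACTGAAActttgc
EPSTI1: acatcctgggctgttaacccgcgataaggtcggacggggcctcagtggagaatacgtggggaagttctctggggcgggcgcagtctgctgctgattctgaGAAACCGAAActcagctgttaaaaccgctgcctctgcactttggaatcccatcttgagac

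DTX3L, the ubiquitin ligase partner of PARP9, had 18.8, 13.7 and 15.6 CPM with DMSO and 3.62, 2.81 and 3.38 CPM with Ento+AZD (log2 fold change −2.29, standard error 0.16, adjusted p = 1.82e-06 by the quasi-likelihood test of edgeR, adjusted after Benjamini and Hochberg). EPSTI1, an interferon-induced gene, had 16.4, 14.1 and 12.2 CPM and 5.53, 5.05 and 3.38 CPM (log2 fold change −1.61, standard error 0.17, adjusted p = 1.67e-05 by the same test). Both lay far lower in every Ento+AZD library, as PARP9 did. PARP9 has 2 start sites in the table, both on the opposite strand. The second lies 38 bases before that of DTX3L, so that the same 10 capital letters fall into its window, while the window of the first, which the counts below use, holds no match. Exons of both genes overlap. On either strand GAAANNGAAA was found in 13 of 25 windows of the list (52%) and in 2.93% of the 10473 windows of tested genes. Within the list it was found in 6 of 9 windows of members that were lower and 1 of 3 of those higher, too few to compare. The direction was not shared by the whole list, and the members higher numbered 7 without DMSO replicate 1 and 2 without Ento+AZD replicate 2. IRF7, a factor that amplifies interferon production, had 7.51, 5.73 and 5.97 CPM and 12.6, 16 and 10.8 CPM (log2 fold change 1.01, standard error 0.15, adjusted p = 1.61e-04 by the same test), and IRF9, a subunit of the ISGF3 complex, 10.8, 10.4 and 9.04 CPM and 14.1, 16.5 and 11.6 CPM (log2 fold change 0.47, standard error 0.11, adjusted p = 0.00342 by the same test). Both were higher without overlap, IRF9 with an adjusted p of 0.077 without the replicate number.

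Ribosomal protein genes moved by small amounts in 1 direction, with 56 of 79 higher and 0 lower (median 0.28). Their summed level was 73687, 67486 and 57862 CPM with DMSO and 85316, 80139.7 and 79224 CPM with Ento+AZD. RPS4X had 1128, 1137 and 875 CPM and 1542, 1608 and 1455 CPM (log2 fold change 0.56, standard error 0.08, adjusted p = 1.68e-04 by the quasi-likelihood test of edgeR, adjusted after Benjamini and Hochberg), and RPLP1 had 921, 925 and 773 CPM and 1238, 1212 and 1227 CPM (log2 fold change 0.49, standard error 0.08, adjusted p = 2.03e-04 by the same test). All 3 Ento+AZD sums were above all 3 DMSO sums, and neither gene overlapped. There were 35 members higher without Ento+AZD replicate 3 and 20 without the replicate number, with none lower in either fit. These genes have processed copies in the count table, which may take part of their reads. Ribosome biogenesis was less uniform, with 15 of 55 higher and 4 lower, or 3 and 0 without the replicate number. The rRNA methylase subunit FBL had 242, 246 and 293 CPM and 195, 154 and 215 CPM (log2 fold change −0.48, standard error 0.08, adjusted p = 3.93e-04 by the same test, adjusted p = 0.0595 without the replicate number), and the processing factor RRP12 29.1, 43.7 and 31.6 CPM and 53.8, 50.1 and 63.1 CPM (log2 fold change 0.70, standard error 0.13, adjusted p = 8.16e-04 by the same test). FBL was lower and RRP12 higher without overlap. The number of higher genes in this list hung on single libraries, being 8, 25 and 7 without DMSO replicates 1, 2 and 3, and 5, 29 and 5 without Ento+AZD replicates 1, 2 and 3.

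In the network of MYC and its antagonists 5 of 15 genes were higher and 2 lower, or 2 and 1 without the replicate number, with 3 higher without Ento+AZD replicate 1 or 3. The antagonists did not move together. MXD4 had 168, 153 and 84.2 CPM with DMSO and 252, 256 and 221 CPM with Ento+AZD (log2 fold change 0.89, standard error 0.14, adjusted p = 2.01e-04 by the quasi-likelihood test of edgeR, adjusted after Benjamini and Hochberg), and MXD3, which is tied to dividing cells, had 34.9, 22.6 and 43.3 CPM and 15.6, 9.15 and 16.1 CPM (log2 fold change −1.3, standard error 0.13, adjusted p = 1.10e-05 by the same test). MXD4 was higher and MXD3 lower, both without overlap and both also without the replicate number. Of 22 transcripts linked to BET inhibition 12 were higher and 1 lower (median 0.31), or 6 and 0 without the replicate number. This list mixes genes of BET proteins and P-TEFb, histone genes and others such as MYC and IL7R. No common direction was set for it, so its counts have no single meaning. The 1 lower member was IL7R (log2 fold change −2.06). ZCCHC24 had 3.46, 2.29 and 3.18 CPM and 5.48, 7.77 and 5.64 CPM (log2 fold change 1.04, standard error 0.22, adjusted p = 0.00168 by the same test). The histone list had 6 of 21 higher and 5 lower, or 1 and 0 without the replicate number, and the lower ones numbered 3 without DMSO replicate 2 and 1 without Ento+AZD replicate 1. As background, mRNAs of replication-dependent histones lack a poly(A) tail, and the libraries were made from poly(A) RNA. The polyadenylated variant H2AZ1 fell from 414, 305 and 379 CPM to 257, 121 and 269.7 CPM (log2 fold change −0.85, standard error 0.14, adjusted p = 2.89e-04 by the same test, adjusted p = 0.156 without the replicate number). Among 74 chromatin-modifying enzymes 12 were higher and 19 lower (median 0.03), near the background, or 2 and 5 without the replicate number, and 11 were lower without Ento+AZD replicate 1 and 12 without Ento+AZD replicate 3. The class IIa deacetylase gene HDAC9 had 11.8, 8.93 and 11.2 CPM and 6.99, 3.62 and 4.57 CPM (log2 fold change −1.1, standard error 0.17, adjusted p = 2.41e-04 by the same test), and the de novo DNA methyltransferase DNMT3B 9.38, 6.5 and 10.4 CPM and 4.3, 2.19 and 4.96 CPM (log2 fold change −1.24, standard error 0.17, adjusted p = 7.71e-05 by the same test, adjusted p = 0.0641 without the replicate number). Both were lower without overlap.

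Genes of the integrated stress response leaned downwards. Of 35 ATF4 targets and tRNA synthetases 23 were lower and 0 higher (median −0.42), with 13 lower without the replicate number. Besides SLC7A11, DDIT4 (REDD1), an inhibitor of mTORC1 that responds to ATF4 and to hypoxia, had 213, 109.9 and 178 CPM with DMSO and 54.2, 44.6 and 46.9 CPM with Ento+AZD (log2 fold change −1.71, standard error 0.26, adjusted p = 1.89e-04 by the quasi-likelihood test of edgeR, adjusted after Benjamini and Hochberg). CHAC1, which degrades glutathione, had 3.54, 1.15 and 2.99 CPM and 0.538, 0.238 and 0.169 CPM (log2 fold change −3.02, standard error 0.51, adjusted p = 3.93e-04 by the same test). The groups did not overlap for either gene, and both calls held without the replicate number. Of 27 heat shock genes 11 were lower and 0 higher (median −0.22), against 7 lower without DMSO replicate 2, 6 without Ento+AZD replicate 2 and 3 without the replicate number. HSPB1, the small heat shock protein HSP27, had 12.4, 10.8 and 11.7 CPM and 2.54, 1.91 and 1.24 CPM (log2 fold change −2.62, standard error 0.17, adjusted p = 1.71e-06 by the same test), and the inducible HSP70 gene HSPA1B 38.6, 29.3 and 30.4 CPM and 20.5, 15.2 and 20.1 CPM (log2 fold change −0.82, standard error 0.10, adjusted p = 4.16e-05 by the same test). Both were lower in every Ento+AZD library. HSPA1B and HSPA1A are near-identical copies, so reads may be split between them.

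Glycolysis and hypoxia-responsive genes were lower in 21 of 35 cases and higher in 0 (median −0.43). Their summed level was 10927, 11621 and 14695 CPM with DMSO and 9924, 7976 and 11134 CPM with Ento+AZD, so that the groups overlapped and DMSO 3 was the highest library. Without DMSO replicate 3 the number lower was 14, without Ento+AZD replicate 3 it was 12, and in the fit without the replicate number as a term it was 2. In lipid synthesis 6 of 40 genes were higher and 11 lower (median −0.11), or 1 and 6 without the replicate number. The higher genes numbered 3 without DMSO replicate 1, 2 without Ento+AZD replicate 1 and 3 without Ento+AZD replicate 3. ELOVL6, which lengthens palmitate, had 41.3, 35.2 and 36.3 CPM with DMSO and 10.7, 8.62 and 12.5 CPM with Ento+AZD (log2 fold change −1.85, standard error 0.16, adjusted p = 4.92e-06 by the quasi-likelihood test of edgeR, adjusted after Benjamini and Hochberg), and the desaturase FADS1 had 38.2, 35.8 and 34.8 CPM and 21.6, 23.6 and 23 CPM (log2 fold change −0.67, standard error 0.09, adjusted p = 9.85e-05 by the same test). Both enzymes of fatty acid remodelling were lower without overlap, while TM7SF2, a sterol reductase, had 83.9, 87.7 and 55.7 CPM and 116, 146 and 116 CPM and was higher (log2 fold change 0.75, standard error 0.11, adjusted p = 1.26e-04 by the same test). Of 76 nuclear-encoded genes of the respiratory chain 3 were higher and 17 lower (median −0.06), and the number lower ran from 8 without DMSO replicate 2 or Ento+AZD replicate 2 through 9 without Ento+AZD replicate 3 and 11 without DMSO replicate 1 to 26 without DMSO replicate 3. The higher genes numbered 7 without DMSO replicate 1 and 6 without Ento+AZD replicate 2. In the fit without the replicate number as a term 1 gene was lower. RNR2, the mitochondrial 16S rRNA, rose from 15890.2, 18033 and 14949 CPM to 21935, 25319 and 26144 CPM (log2 fold change 0.59, standard error 0.09, adjusted p = 2.02e-04 by the same test).

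Among ion channels and metal transporters 10 of 36 were higher and 8 lower, or 6 and 3 without the replicate number, and the lower ones numbered 4 without Ento+AZD replicate 1 and 5 without Ento+AZD replicate 3. The zinc exporter SLC30A4 had 8.58, 6.69 and 5.54 CPM with DMSO and 16.1, 22.7 and 12.5 CPM with Ento+AZD (log2 fold change 1.29, standard error 0.16, adjusted p = 4.01e-05 by the quasi-likelihood test of edgeR, adjusted after Benjamini and Hochberg). Its relative SLC30A3 had 6.92, 8.02 and 12.5 CPM and 2.25, 2.53 and 2.37 CPM (log2 fold change −1.9, standard error 0.21, adjusted p = 1.90e-05 by the same test). The transferrin receptor TFRC, which brings iron into cells, had 166, 233 and 183 CPM and 324, 283 and 344 CPM (log2 fold change 0.73, standard error 0.12, adjusted p = 2.63e-04 by the same test). SLC30A4 and TFRC were higher and SLC30A3 lower, each without overlap. Of 38 genes of the cytoskeleton and small GTPases 16 were lower and 2 higher (median −0.11), or 3 and 1 without the replicate number. The largest decrease was that of S100A10 (log2 fold change −3.36), which was not well-counted. By the same test S100A10 did not pass without the replicate number (adjusted p = 0.058) or without Ento+AZD replicate 1 (adjusted p = 0.0833). S100A4, given above, was lower too. Of the 2 higher members MARCKSL1, an actin-regulating substrate of protein kinase C, had 352, 423 and 276 CPM and 599, 654 and 599 CPM (log2 fold change 0.84, standard error 0.11, adjusted p = 5.09e-05 by the same test), without overlap. Sphingolipid genes gave 4 higher and 5 lower of 27, or 2 and 2 without the replicate number, with 3 lower without Ento+AZD replicate 1. DGKA, a kinase that removes diacylglycerol, rose from 82.2, 87.7 and 75 CPM to 126, 151 and 106 CPM (log2 fold change 0.63, standard error 0.08, adjusted p = 3.64e-05 by the same test).

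**Figure D4:**
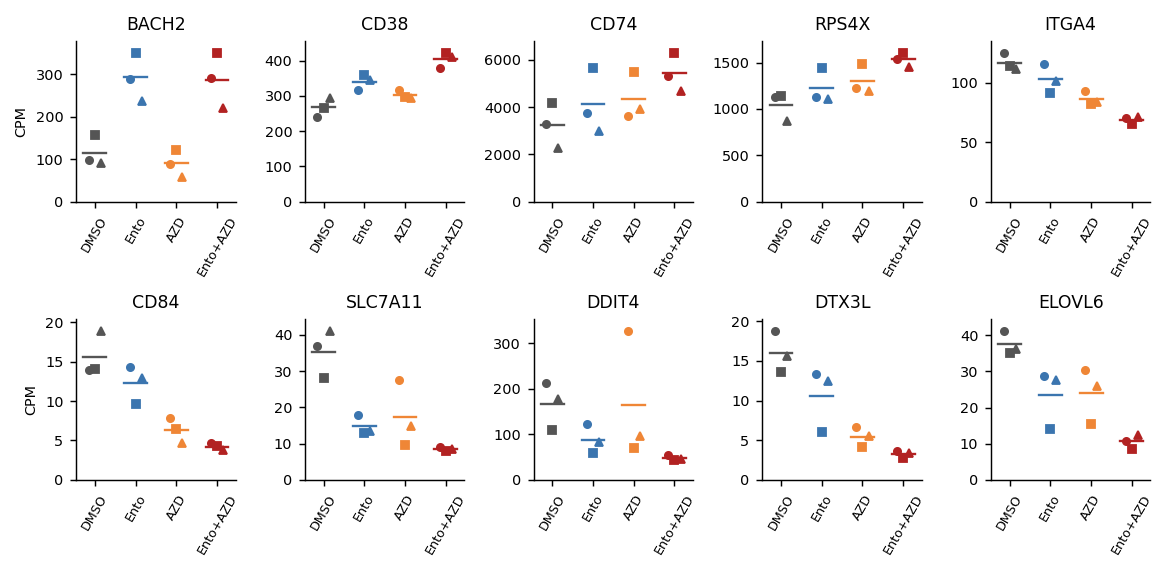
CPM (y axis, from 0) of 10 genes described in the text in the 4 groups, with 1 point per library (circle, square and triangle for replicates 1, 2 and 3) and a line at the group mean. BACH2, CD38, CD74 and RPS4X are higher and the other 6 lower in all 3 Ento+AZD libraries than in any DMSO library, and BACH2 is near its Ento level and not near its AZD level.

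The same fit allowed Ento+AZD to be compared with each single agent for the 24 largest changes. These contrasts share the Ento+AZD libraries, and the effects against DMSO share the DMSO libraries. The 24 genes were chosen for the size of their change with both agents, which favours a larger change than with either agent, so the counts describe these genes and support nothing further. Of the 24 genes, 16 differed further from DMSO with both agents than with Ento and than with AZD (8 of the higher and 8 of the lower), 18 further than with Ento and 19 further than with AZD, and 3 further than with neither, against 4.94%, 19.7% and 11.2% of all 16835 genes for the first 3 counts, at an adjusted p under 0.05 for each contrast by the quasi-likelihood test of edgeR, adjusted after Benjamini and Hochberg. This count rested on the replicate number, since 0 of the 24 passed both contrasts without it. Without Ento+AZD replicate 1 it was 9 and without Ento+AZD replicate 3 it was 8.

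TDRD6 had log2 fold changes against DMSO of 0.94 with Ento, 0.97 with AZD and 1.8 with Ento+AZD. Its difference between both agents and Ento was 0.87 (standard error 0.11, adjusted p = 3.82e-04) and that to AZD 0.83 (standard error 0.11, adjusted p = 8.39e-04), by the same test. For SESTD1 the values against DMSO were −0.97, −0.90 and −2.11, with differences of −1.14 (standard error 0.23, adjusted p = 0.00339) to Ento and −1.21 (standard error 0.23, adjusted p = 0.00558) to AZD. In both genes each agent alone reached about the midpoint of the joint change. PARP9 lay nearer to AZD, with −0.51 for Ento, −1.43 for AZD and −2.24 for both, and passed each difference. LOC102723528 and IGLL5 were not further from DMSO than with Ento alone by the same test, with differences between both agents and Ento of 0.10 (standard error 0.16, adjusted p = 0.708) and −0.14 (standard error 0.24, adjusted p = 0.715). BACH2 and SLC30A4 had log2 fold changes against DMSO of 1.36 and 1.32 for Ento but −0.38 and −0.93 for AZD, where the difference between both agents and AZD was 1.71 (standard error 0.10, adjusted p = 8.83e-07) for BACH2 and 2.21 (standard error 0.17, adjusted p = 1.07e-05) for SLC30A4. TASOR2 and LAPTM5 reached 1.13 and 0.99 with AZD alone, and did not pass in their differences to AZD of 0.19 (standard error 0.12, adjusted p = 0.335) and 0.07 (standard error 0.14, adjusted p = 0.788). LTB was lower with both agents than with Ento, with a difference of −0.62 (standard error 0.14, adjusted p = 0.00664), although it was higher than with DMSO. The 3 genes that passed neither contrast were COL5A1, MT2A and PFKFB4, in which DMSO 3 stood far above DMSO 1 and 2.

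**Figure D5:**
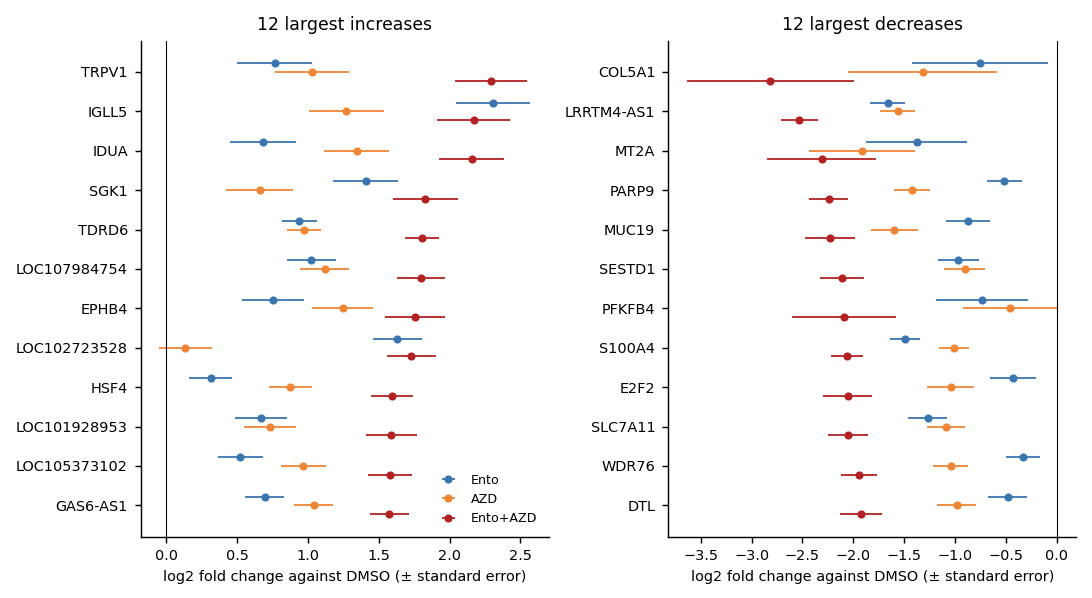
Log2 fold changes against DMSO (x axis, with bars of 1 standard error) of the 12 largest increases (left) and 12 largest decreases (right) for Ento (blue), AZD (orange) and Ento+AZD (red). The genes were chosen for a large change with Ento+AZD, which lies farthest from 0 for all of them except IGLL5, where Ento alone reached 2.31 against 2.17.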

How the data were processed

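RNA of SU-DHL-4 cells was measured by RNAseq of poly(A) libraries (75 bp single reads, NextSeq500). Per the labels and the study's methods the authors trimmed reads with cutadapt through Trim Galore, used GRCh38.p13 for the alignment (the submitters' processing notes also list hg19, with no role) and Rsubread for the counts per gene, without pooling replicates. Whether strand was used is not given in the sources used here. The deposited raw counts of 46863 genes were analysed. The deposited table of log2 values after TMM was not used, nor was the study's microarray set analysed here.

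Counts were fitted in edgeR 4.0.16 (R 4.3.3) after filterByExpr by group (minimum count 10, minimum total 15) and TMM, with group and replicate number as terms over all 12 libraries, quasi-likelihood F-tests and Benjamini-Hochberg adjustment over 16835 genes. DEGs were genes with a log2 fold change beyond 1 in either direction at an adjusted p under 0.05. Standard errors were derived from F as the size of the log2 fold change over its square root. Depth was 18121993 to 24675830 counts a library. Libraries that share a replicate number deviated together between DMSO and Ento+AZD (correlations 0.213, 0.329 and 0.349 across genes, against −0.281 to −0.0172 for different numbers). Deviations were taken from each group's mean, so positive values for the same number bring negative ones for different numbers, which are no separate evidence. The study's model has treatment group and batch as terms. The replicate number was taken as this batch, although neither the study nor the labels say that it is. Libraries of a group differed beyond sampling noise (chi-square per degree of freedom 9.06 to 40.3).

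Named genes were, among well-counted DEGs of the same sign in the 3 pairs and outside the replication and mitosis lists, the 12 largest changes and the 5 most abundant in each direction, and the up to 3 largest changes in each direction per list, with further members where their role was needed. The members and lists were chosen with earlier results of these data known. Promoters were RefSeq windows of 250 bases before to 50 after the first listed start site.

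Alternatives were the fit without the replicate number, the 6 libraries alone, DESeq2 1.42.0 and its size factors, library totals, no low-count filter, other thresholds, the non-legacy edgeR option (chosen after seeing the data) and leaving out each library. In simulated data for Ento+AZD against DMSO over 16835 genes, 78 of 100 genes changed by a log2 of 1 and 94 of 100 changed by 2 were called at an adjusted p under 0.05, and so were 11 of 16635 unchanged genes. The simulated counts held no replicate effect, and their spread came from the fit with the replicate number. Far fewer genes were changed in them than were called in the data. They therefore check the fitting steps and do not give error rates for the calls above.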

Additional observations from a re-analysis of the deposited data

How the results depend on the processing

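No named gene changed the sign of its log2 fold change under the alternatives tried. The 1401 DEGs became 799 without the replicate block (304 overexpressed, 495 underexpressed), of which 790 were among the 1401, and 3153 at a fold of 1.5 (1445 and 1708) or 6736 by adjusted p alone (3232 and 3504). DESeq2 with the replicate number gave 1233, of which 1217 were shared. The 366 well-counted DEGs became 213 without the replicate block (64 and 149) and 253 at a mean of at least 20 CPM (38 and 215). Leaving out 1 library gave 1266 to 1616 DEGs (481 to 695 overexpressed, 761 to 950 underexpressed) and 291 to 452 well-counted DEGs (68 to 103 and 216 to 349). Of the 24 largest changes, the 16 that exceeded both single agents became 0 without the replicate block and 8 to 18 without 1 library. The cause was not tested. Of the 24 themselves, 3 lost their call without the replicate block and COL5A1 also without DMSO replicate 3, Ento+AZD replicate 1 or Ento+AZD replicate 3. Of the 209 named genes called, 98 lost their call without the replicate block and between 0 and 24 under each other alternative. The share of DEGs that were underexpressed was 58.7%, and 52% (adjusted p alone) to 63.7% (library totals) across alternatives. In 10 of 40 lists the side with more calls changed to the other side under at least 1 alternative. Ties were not counted, such as B-cell receptor signalling with 3 higher and 3 lower without the replicate block. Without the replicate block B-cell identity had 4 higher and 6 lower, surface antigens 2 and 4, the BCL2 family 2 and 1 and cytokine receptors 3 and 2. With library totals ion channels had 9 and 10 and plasma-cell genes 6 and 7. Leaving out single libraries turned the BCL2 family (5 and 3 without Ento+AZD replicate 3), cytokine receptors (7 and 6 without Ento+AZD replicate 1), chromatin enzymes (15 and 14 without DMSO replicate 3), ion channels (9 and 10 without DMSO replicate 1), sphingolipid genes (6 and 5 without DMSO replicate 1), histones (4 and 6 without DMSO replicate 3, 4 and 5 without Ento+AZD replicate 3) and p53 targets (7 and 6 without DMSO replicate 3, 6 and 4 without Ento+AZD replicate 1, 6 and 5 without Ento+AZD replicate 3). Scaling by library totals moved the median log2 fold change to −0.04. All values rest on 1 cell line and 1 time point.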
